A study of Homo sapiens with 24 samples.

Results

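The autophagy machinery genes were followed through irradiation and LCL521 in PPC1 prostate cancer cells. They were taken from a hand-written list of 42 symbols, which covers the kinases that start autophagy, the lipid kinase complex, the lipid transfer and conjugation machinery, the ATG8 proteins and the cargo receptors. Every row of the count table that had one of these symbols and was typed as protein-coding was taken. This gave 43 of 48162 rows, because WDR45 has a second, short row. The RNA-seq series holds 24 libraries from 4 conditions, each made once in 6 independent experiments in which all conditions were harvested in parallel. Untreated parental cells (UT) were neither irradiated nor filtered. Polyploid giant cancer cells (PGCC) had received 8 Gy on day 2, were collected on day 5 and were enriched as the cells held back by a 20 micron filter. In the other 2 conditions, UT_LCL and PGCC_LCL, the same populations were exposed for 5 h before harvest to 5 µM LCL521, a pro-drug that inhibits the lysosomal enzyme acid ceramidase (ASAH1). The series' design text sets that exposure on day 5, and the methods of the study call it day 3. The study's discussion puts the collection of PGCC 3 days after irradiation, so both can name the same day. All libraries come from a single cell line. Radiation, time in culture after it, cell size and the filtration step differ together between UT and PGCC and cannot be told apart, since unfiltered irradiated cells were not analysed here.

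Autophagy is the pathway by which a cell encloses part of its cytoplasm in a double membrane, the autophagosome, and delivers it to the lysosome. The ULK1 kinase complex starts the process and activates a phosphatidylinositol 3-kinase complex, ATG9 vesicles and ATG2 bring lipid to the growing membrane, and WIPI proteins read the lipid signal there. A chain of enzymes resembling the ubiquitin cascade (ATG7, ATG3, ATG10, ATG5, ATG12, ATG16L1) attaches the ATG8 proteins of the LC3 and GABARAP families to the membrane, where they hold cargo through receptors such as SQSTM1 (p62). Much of this machinery is controlled after translation, so that mRNA levels do not measure the flow of material through the pathway. Protein, lipidation and flux are not measured in these data.

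Libraries held between 14835246 and 19906601 counts on genes, and the members together took between 0.248% and 0.311% of them. Levels are given in CPM, that is counts divided by the library total times edgeR's TMM factor, on which 3 counts, used as a floor, came to 0.151 to 0.202 depending on the library. The floor covers counting error only. The labelled identity could be checked only in part. The sum of 4 prostate lineage genes stayed between 0 and 0.187 CPM, with KLK3 and KLK2 at 0 in every library. Epithelial genes did not move together. The keratin KRT8 had means of 70.6 CPM in UT and 177 CPM in PGCC, and the keratin KRT18 had 234 and 168 CPM. CDH1 had means of 3.08 and 1.98 CPM, and EPCAM stayed at 0.835 CPM or below in every library. Leukocyte genes summed to between 0.410 and 2.77 CPM in UT and between 2.35 and 3.99 CPM in PGCC, and CD3E had at most 1 count. Fibroblast genes summed to between 5.69 and 13.2 CPM in UT and between 5.48 and 8.88 CPM in PGCC, and the endothelial gene CDH5 stayed at 0.398 CPM or below in both. The part of these genes in the differences given here was not tested. The p53 target CDKN1A, a marker of the radiation response, had 10.3 CPM in UT and 135 CPM in PGCC (means). In bulk samples, fewer cells of a type and less RNA per cell cannot be told apart. The first principal component of all genes, with 55.9% of the variance, separated PGCC from parental libraries, and the second, with 16.5%, set the 8 libraries of experiments 4 and 5 apart from the other 16. Many members differ between these experiments, so that the members' calls between the populations are given with and without experiments 4 and 5. That split was drawn from these same data. Its adjusted p values therefore describe how a result depends on the split and are no independent support. Each fit of experiments 4 and 5 alone holds 2 libraries per condition.

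Of the 43 rows, 40 passed the filter on low counts in all comparisons. Those that did not were ULK2, the paralogue of ULK1, with 0 to 5 counts per library, MAP1LC3A, the LC3A member of the ATG8 family, with 0 to 4 counts, and the short WDR45 row, with 0 counts throughout. The short row lies wholly within the other WDR45 row on the same strand, and reads shared by both may be missing from their counts. Divided by gene length, the members spanned a wide range. SQSTM1 stood first in UT, with 199.7 ± 41.9 CPM per kb (SD, n = 6), followed by the mitophagy receptor BNIP3 with 85.5 ± 34.8 CPM per kb and by MAP1LC3B (LC3B) with 76.5 ± 29.9 CPM per kb. The spread of these 3 genes over the UT libraries was wide enough that BNIP3 and MAP1LC3B did not differ beyond it. At the other end stood EPG5, a tether between autophagosome and lysosome, with 1.18 CPM per kb, and GABARAP with 0.528 CPM per kb (means). GABARAP's count may lack reads shared with an annotated gene that overlaps it on the same strand. The same 3 members led in PGCC. OPTN moved from rank 37 to rank 33 of 40 and UVRAG from rank 30 to rank 22, whereas PIK3C3 moved from rank 21 to rank 32.

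**Figure D1:**
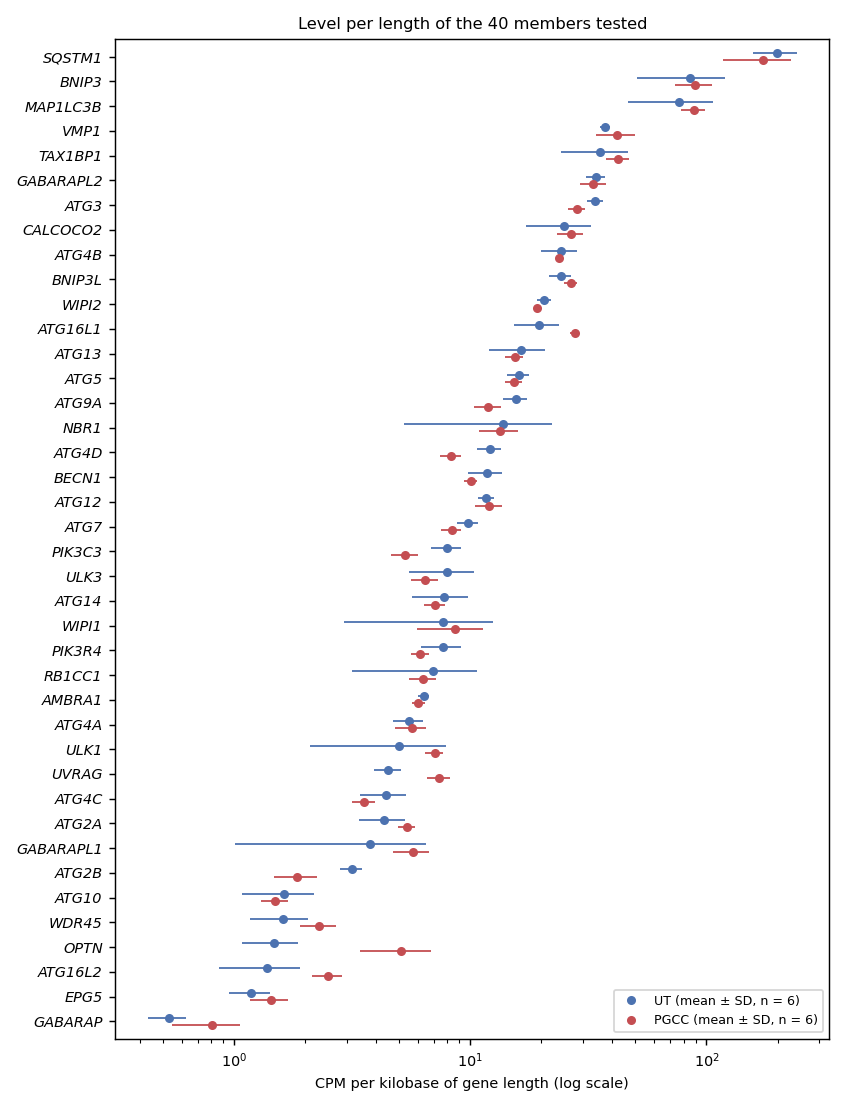
Mean level of each tested member in CPM per kilobase of gene length on a log axis, with bars of 1 SD over 6 libraries, for UT and PGCC. SQSTM1 lies highest in both, and OPTN shows the widest gap between the populations.

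In PGCC compared with UT, OPTN, UVRAG, ATG16L1, ATG16L2, WDR45 and GABARAP rose, whereas ATG2B, PIK3C3, ATG4D, ATG9A and ATG3 fell. These 11 of 40 tested members, or 27.5%, had an adjusted p under 0.05 (quasi-likelihood test of edgeR, adjusted by Benjamini-Hochberg). Over all 13812 genes tested the share was 47.4%. The 6 members that rose are set against 23.1% of all genes called higher, and the 5 that fell against 24.3% called lower. The members' median size of log2 fold change was 0.22 against 0.37 over all genes, the median signed value was -0.01 against -0.03, and 1 member, OPTN, exceeded 1 log2 unit, which 14.2% of all genes did. With the experiment number as a block, which compares PGCC and UT of the same experiment, 15 members passed (9 higher and 6 lower), against 56.2% of all genes. Without experiments 4 and 5, 20 members passed (15 higher and 5 lower, 54.6% of all genes), 25 with the block as well (64.3% of all genes), and in experiments 4 and 5 alone 19 passed (6 higher and 13 lower, 45.7% of all genes). Scaling by library totals in place of TMM gave 9 higher and 3 lower members (45.9% of all genes called) and moved the split of all genes to 60.2% higher (48.7% with TMM), with the median of all genes at 0.07.

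**Figure D2:**
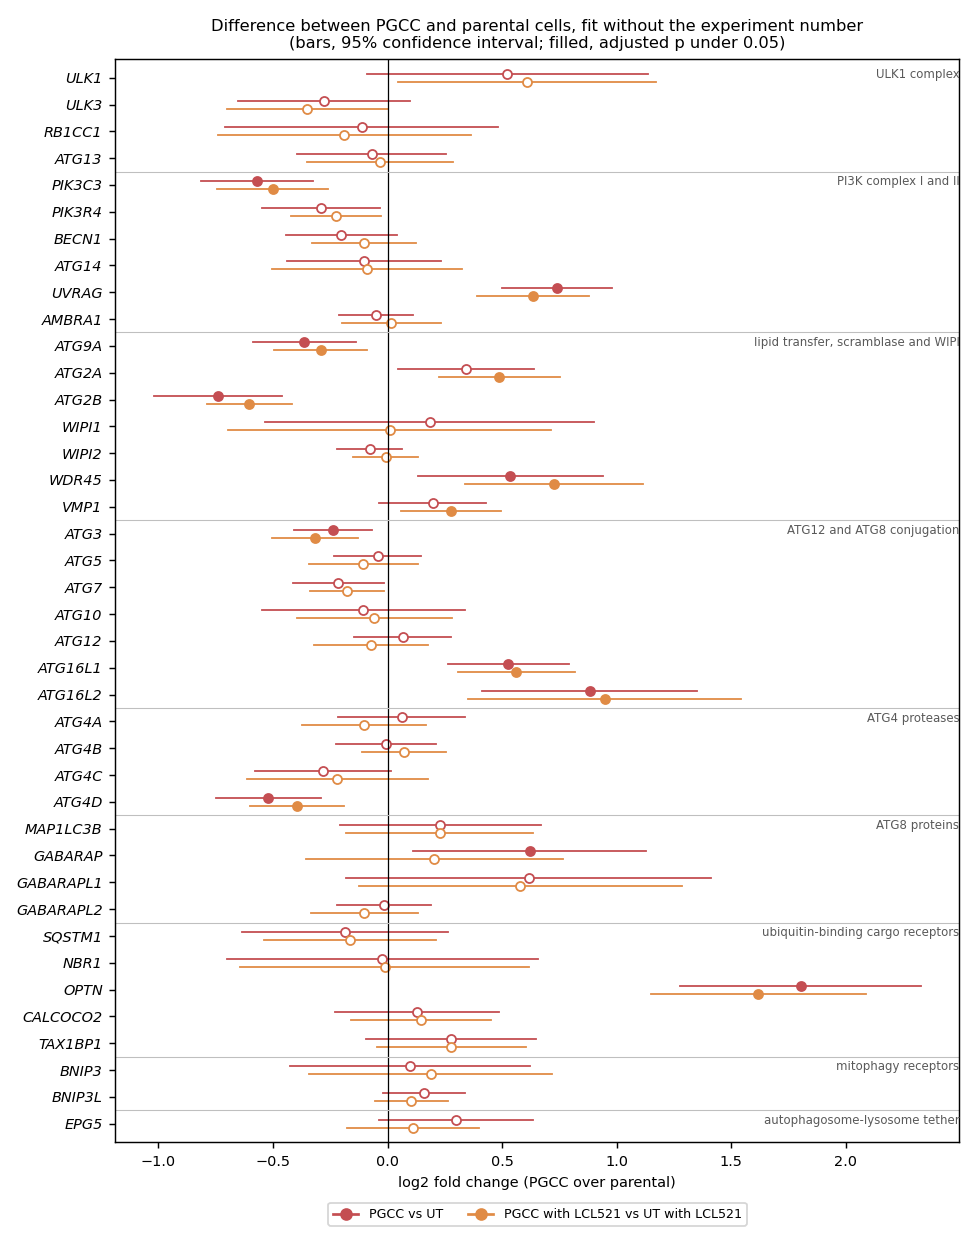
Log2 fold change with its 95% interval for each member, ordered by role, for PGCC against UT and for PGCC_LCL against UT_LCL (edgeR). Filled points have an adjusted p under 0.05. OPTN lies furthest to the right in both comparisons, and ATG2B and PIK3C3 lie left of 0 in both.

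The ULK1 complex gave no call in the fit without the block. ULK1, the kinase that starts autophagy (ENSG00000177169, chromosome 12 from 132379196 to 132407712 as listed on hg19, like all gene positions here), had a lowest, median and highest level of 12.7, 18.9 and 51.9 CPM in UT and of 32.9, 36.9 and 42.6 CPM in PGCC. In UT the libraries of experiments 4 and 5 stood at 51.9 and 38.6 CPM, above all others, which reached at most 19.3 CPM. PGCC libraries lay close together, so that the populations overlapped only through these 2 UT libraries. The log2 fold change was 0.52 ± 0.29 (SE, n = 6, adjusted p = 0.149 from edgeR), 0.69 with the block (adjusted p = 0.020), 1.10 without experiments 4 and 5 (adjusted p = 1.24e-05) and -0.11 in experiments 4 and 5 alone (adjusted p = 0.563). RB1CC1 (FIP200), the scaffold of the complex, had a value of -0.11 (adjusted p = 0.760), and was at 77.7 and 78.0 CPM in UT of experiments 4 and 5, where the UT median was 33.1 CPM. It rose without these experiments, by 0.46 (adjusted p = 0.00984), and fell within them, at -0.76 (adjusted p = 3.11e-04). ATG13, a regulatory subunit, and the ULK1-related kinase ULK3 had log2 fold changes of -0.07 and -0.28, neither of which passed.

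In the phosphatidylinositol 3-kinase complex, the catalytic subunit fell and an alternative partner rose. PIK3C3 (VPS34, ENSG00000078142, chromosome 18 from 39535171 to 39667794), the kinase itself, ran from 63.8 through a median of 73.3 to 94.2 CPM in UT and from 43.1 through 47.6 to 58.6 CPM in PGCC. Every PGCC library lay below every UT library. The level fell by 32.6%, at a log2 fold change of -0.57 ± 0.11 (SE, n = 6, adjusted p = 9.70e-04), and was -0.56 without experiments 4 and 5 and -0.57 in them alone. UVRAG (ENSG00000198382, chromosome 11 from 75526212 to 75854239), a BECN1 partner that takes part in autophagosome maturation and endosomal traffic, ran from 14.8 through 18.2 to 22.1 CPM in UT and from 25.0 through 31.0 to 35.2 CPM in PGCC. All PGCC libraries were higher than all UT libraries, with a 1.67-fold rise (95% interval 1.41 to 1.97, adjusted p = 1.05e-04), and the log2 fold change was 0.78 without experiments 4 and 5 and 0.68 in them alone, both past the threshold. The partner that directs the complex to autophagosome formation, ATG14, had a log2 fold change of -0.10 and BECN1, the core scaffold, one of -0.20. PIK3R4 (VPS15), the regulatory subunit, had -0.29 (adjusted p = 0.0598) and passed without experiments 4 and 5 at -0.40 (adjusted p = 0.00775). AMBRA1, a BECN1 regulator, had -0.05.

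Among the lipid transfer proteins and their helpers, ATG2B and ATG9A fell and WDR45 rose. ATG2B (ENSG00000066739, chromosome 14 from 96747595 to 96830207), a bridge that carries lipids into the growing membrane, ran from 31.7 through 35.8 to 43.0 CPM in UT and from 17.2 through 20.4 to 27.0 CPM in PGCC. The ranges did not overlap, and the level fell by 40.2% (log2 fold change -0.74 ± 0.13, SE, n = 6, adjusted p = 3.67e-04). It also passed without experiments 4 and 5 (-0.83) and in them alone (-0.55). Its paralogue ATG2A had 0.34 on the same scale (adjusted p = 0.0553), passed with the block at 0.37 (adjusted p = 0.0144) and had overlapping ranges of 19.5 to 36.8 CPM in UT and 30.0 to 38.1 CPM in PGCC. ATG9A, the scramblase of the vesicles that seed the membrane, ran from 71.1 through 78.3 to 96.2 CPM in UT and from 54.1 through 59.8 to 73.9 CPM in PGCC. It fell in 6 of 6 experiments, by 22.2% (adjusted p = 0.0111), although the ranges overlapped, and its adjusted p was 0.0546 under library totals. Without experiments 4 and 5 ATG9A had a log2 fold change of -0.37 and in them alone one of -0.34, and both passed. The annotated gene overlaps ABCB6 on the same strand over 46.2% of its length, so that reads shared by both genes may be missing from its count. WDR45 (WIPI4), a lipid-reading propeller protein, ran from 3.5 through 4.66 to 7.21 CPM in UT and from 5.77 through 6.87 to 9.14 CPM in PGCC. Its log2 fold change of 0.54 ± 0.19 (SE, n = 6, adjusted p = 0.0299) lost its call without any one of experiments 1 to 5, with values of 0.45 to 0.59 and adjusted p from 0.0512 to 0.0926, and without the filter on low counts (adjusted p = 0.0571). Without experiments 4 and 5 together, WDR45 was at 0.35 (adjusted p = 0.187). Its short row and PRAF2 overlap it on the same strand, so that reads shared with them may be missing from its count. The related WIPI1 and WIPI2 had 0.18 and -0.08, and the scramblase VMP1 had 0.20 (adjusted p = 0.152). WIPI1, which lies wholly opposite PRKAR1A on the other strand, rose by 0.61 without experiments 4 and 5 (adjusted p = 0.00138).

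Both ATG16-like genes of the conjugation machinery rose, and ATG3 fell. ATG16L1 (ENSG00000085978, chromosome 2 from 234118697 to 234204320), which places the ATG12-ATG5 conjugate on the membrane, ran from 57.2 through 82.7 to 103 CPM in UT and from 108 through 117 to 122 CPM in PGCC. All PGCC libraries were above all UT libraries, with a 1.44-fold rise (95% interval 1.2 to 1.73, adjusted p = 0.00279). The lowest UT levels belonged to experiments 4 and 5, and the log2 fold change was 0.35 without them and 0.96 within them. ATG16L2, a paralogue with a less settled part in autophagy, ran from 3.39 through 5.73 to 10.3 CPM in UT and from 9.41 through 11.3 to 13.6 CPM in PGCC. It rose in every experiment, 1.84-fold overall (adjusted p = 0.00436), with ranges that overlapped slightly, and passed without experiments 4 and 5 (log2 fold change 0.84) and in them alone (0.98). ATG3, the E2-like enzyme that hands the ATG8 proteins to lipid, fell by 15.1%, from between 90.3 and 114 CPM to between 76.3 and 97.5 CPM. Its adjusted p of 0.0235 became 0.0525, 0.0868 and 0.0852 without experiments 1, 3 and 5, and 0.148 under library totals. Without experiments 4 and 5 its log2 fold change was -0.19 and did not pass (adjusted p = 0.0934), and in them alone it was -0.31 (adjusted p = 0.0347). The E1-like enzyme ATG7 had -0.21 (adjusted p = 0.0701) and passed with the block (adjusted p = 0.0377). ATG5, ATG10 and ATG12 had log2 fold changes between -0.11 and 0.07, none of which passed.

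Of the 4 ATG4 proteases, which trim ATG8 proteins before conjugation and release them afterwards, ATG4D alone was called. ATG4D (ENSG00000130734, chromosome 19 from 10654571 to 10664094) ran from 19.8 through 23.7 to 27.9 CPM in UT and from 14.2 through 16.0 to 18.5 CPM in PGCC, without overlap. It fell by 30.3% (log2 fold change -0.52 ± 0.11, SE, n = 6, adjusted p = 0.00120), and passed at -0.54 without experiments 4 and 5 and at -0.45 in them alone. The better studied ATG4B, which had the highest level per length of the family, had a log2 fold change of -0.01 with a 95% interval of -0.23 to 0.21, and ATG4A and ATG4C had 0.06 and -0.28.

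The ATG8 proteins that coat the autophagosome were led by MAP1LC3B, with 66.6% of the family's level per length in UT and 69.0% in PGCC, and by GABARAPL2, with 29.7% and 25.9%. These shares are of reads as counted, and GABARAP may lack reads, as given below. MAP1LC3B (ENSG00000140941, chromosome 16 from 87417601 to 87438385) ran from 163 through 190 to 360 CPM in UT and from 243 through 265 to 323 CPM in PGCC. UT libraries of experiments 4 and 5 stood at 360 and 348 CPM, above every PGCC library, and the other 4 UT libraries, at 163 to 201 CPM, below every PGCC library. The log2 fold change of 0.23 ± 0.20 (SE, n = 6, adjusted p = 0.375, 95% interval -0.21 to 0.67) was 0.72 without experiments 4 and 5 (adjusted p = 2.85e-05) and -0.50 in them alone (adjusted p = 0.00369). GABARAPL1 (ENSG00000139112, chromosome 12 from 10365057 to 10375727), an ATG8 protein of the GABARAP branch, ran from 5.41 through 7.40 to 24.0 CPM in UT and from 13.8 through 19.1 to 21.9 CPM in PGCC. Again the UT libraries of experiments 4 and 5 exceeded all PGCC libraries, at 23.0 and 24.0 CPM. Its log2 fold change was 0.62 (adjusted p = 0.189), 0.87 with the block (adjusted p = 0.0220), 1.45 without experiments 4 and 5 (adjusted p = 1.21e-05) and -0.15 in them alone (adjusted p = 0.379). GABARAPL2 (GATE-16) had a log2 fold change of -0.01 with a 95% interval of -0.22 to 0.19. GABARAP had a low count, 11 to 20 per library in UT and 16 to 35 in PGCC, and its log2 fold change of 0.62 (adjusted p = 0.0440) lost its call without each of the 6 experiments in turn (0.54 to 0.68, adjusted p from 0.0551 to 0.105), in DESeq2 (adjusted p = 0.0557) and without the filter on low counts (adjusted p = 0.140). It passed neither without experiments 4 and 5 (0.69, adjusted p = 0.0840) nor in them alone (0.48, adjusted p = 0.356). An annotated gene with 0 counts covers most of GABARAP on the same strand, so its true level is uncertain.

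**Figure D3:**
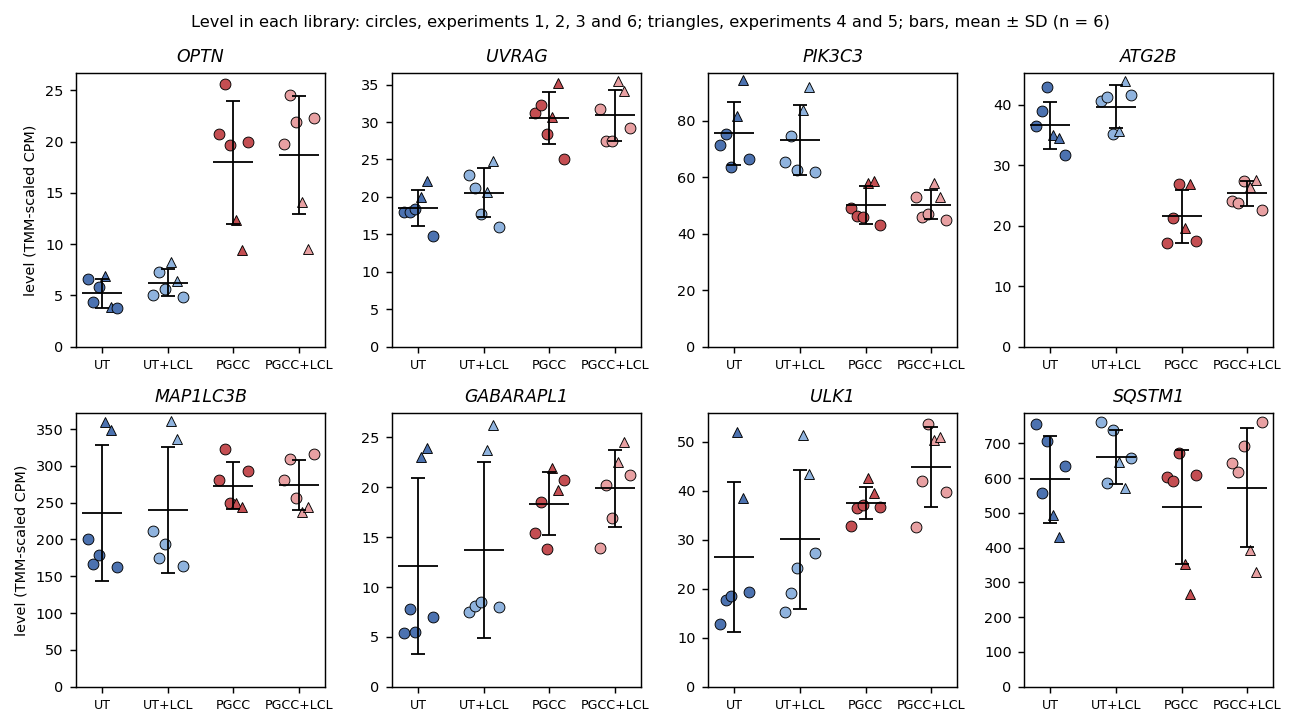
TMM-scaled CPM of 8 members in each of the 24 libraries, by condition. Circles are experiments 1, 2, 3 and 6, triangles are experiments 4 and 5, and bars give the mean and SD over 6 libraries. In UT the triangles lie above the circles for ULK1, MAP1LC3B and GABARAPL1, and in PGCC they lie below them for OPTN and SQSTM1.

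Among the cargo receptors, OPTN rose most of all members. Optineurin (OPTN, ENSG00000123240, chromosome 10 from 13141449 to 13180291), a receptor for damaged mitochondria, bacteria and protein aggregates, ran from 3.81 through 5.07 to 6.90 CPM in UT and from 9.44 through 19.8 to 25.6 CPM in PGCC. All 6 PGCC libraries were above all 6 UT libraries, and the lowest PGCC values, 12.3 and 9.44 CPM, came from experiments 4 and 5. The rise was 3.49-fold (95% interval 2.42 to 5.02, adjusted p = 4.31e-05), with log2 fold changes of 2.09 without experiments 4 and 5 and 1.04 in them alone. Even so, OPTN made up 0.537% of the summed receptor level per length in UT and 1.96% in PGCC, where SQSTM1 made up 72.6% and 66.4%. SQSTM1 (ENSG00000161011, chromosome 5 from 179233388 to 179265078), the receptor for ubiquitinated cargo, ran from 430 through 596 to 754 CPM in UT and from 268 through 598 to 674 CPM in PGCC. Both low PGCC values, 353 and 268 CPM, belonged to experiments 4 and 5. The log2 fold change was -0.18 (adjusted p = 0.494), -0.07 without experiments 4 and 5 (adjusted p = 0.537) and -0.55 in them alone (adjusted p = 0.0126). NBR1, a partner of SQSTM1 in aggregate clearance, was at 114 and 130 CPM in UT of experiments 4 and 5 and at 33.8 to 53.3 CPM in the other UT libraries, against 51.6 to 84.1 CPM in PGCC. Its log2 fold change of -0.02 (adjusted p = 0.963) became 0.55 without experiments 4 and 5 (adjusted p = 0.00338) and -0.58 in them alone (adjusted p = 0.00223). TAX1BP1 and CALCOCO2 (NDP52), receptors for aggregates and bacteria, ranged from 68.8 to 145 CPM and from 67.5 to 137 CPM in UT and from 101 to 138 CPM and from 83.8 to 118 CPM in PGCC. Their log2 fold changes of 0.28 and 0.13 did not pass, and those of 0.57 and 0.33 without experiments 4 and 5 did (adjusted p = 5.16e-04 and 0.00514).

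Neither mitophagy receptor of the outer mitochondrial membrane passed the test between UT and PGCC. BNIP3, a hypoxia-induced gene, ran from 61.2 through 147 to 199 CPM in UT and from 111 through 144 to 177 CPM in PGCC, at a log2 fold change of 0.10 (95% interval -0.43 to 0.62, adjusted p = 0.766). Its UT libraries of experiments 4 and 5, at 61.2 and 81.3 CPM, were the lowest of all, and the value was 0.73 in these experiments alone (adjusted p = 0.00200). BNIP3L (NIX), which clears mitochondria in maturing red cells, had 0.16, and EPG5 had 0.30, neither of which passed.

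By library ranges, 6 of 40 members did not overlap between UT and PGCC (OPTN, UVRAG and ATG16L1 higher, PIK3C3, ATG2B and ATG4D lower), against 26.8% of all genes. Complete separation of 6 against 6 libraries fixes the p of a two-sided exact permutation test at 0.00216, its smallest value. For these members that p therefore adds nothing to the ranges. Within experiments, 11 members kept one direction in all 6 (5 higher, 6 lower), against 50.5% of all genes. To these belong ATG16L2 and GABARAP, both higher, and ATG9A, ATG3 and ATG7, all lower, beside the 6 members just named.

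**Figure D4:**
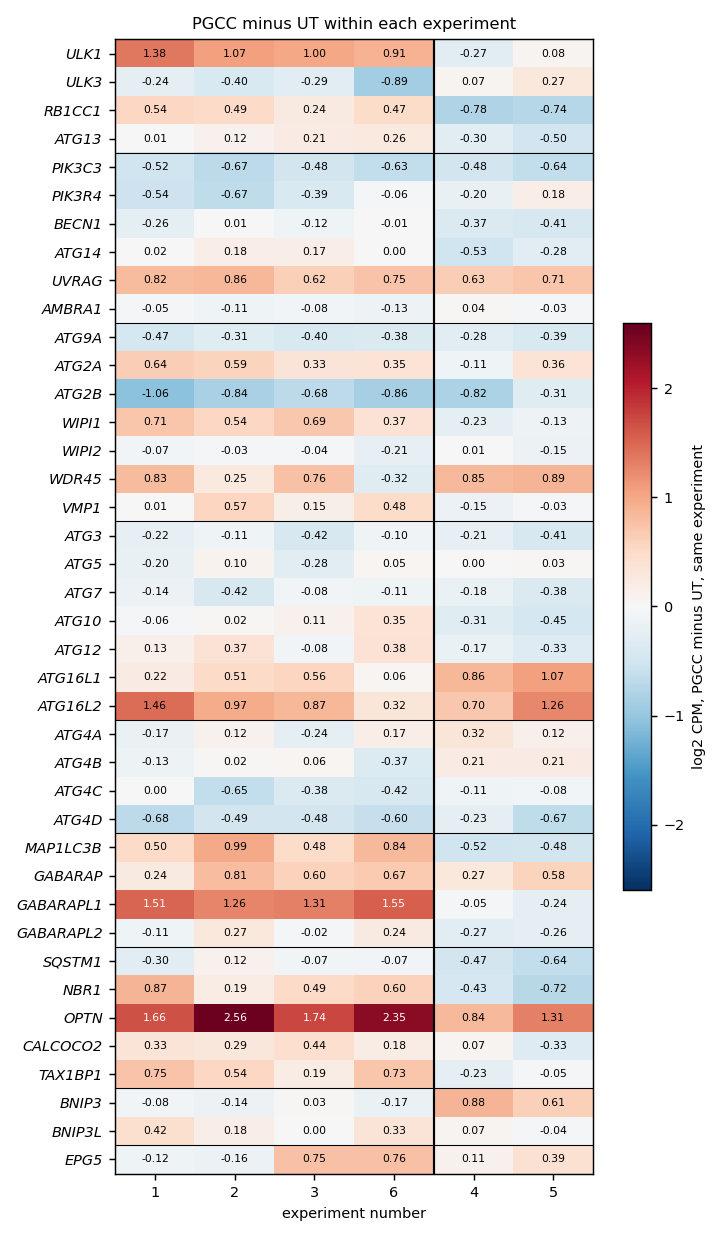
Difference in log2 CPM, PGCC minus UT of the same experiment, for each member, with experiments 1, 2, 3 and 6 on the left and 4 and 5 on the right. OPTN and UVRAG are above 0 and PIK3C3 and ATG2B below 0 in all 6 columns, while ULK1, RB1CC1, MAP1LC3B, GABARAPL1 and NBR1 lie above 0 in the 4 columns on the left and between -0.78 and 0.08 in the 2 on the right.

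Many members also differed between experiments within a condition. In UT, 17 of the 40 members lay above and 7 below the range of the other 4 libraries in both experiments 4 and 5, together 60% against 50.7% of all genes tested. For 7 members the 2 sets of UT libraries differed over 2-fold, GABARAPL1 (3.66-fold higher in experiments 4 and 5), NBR1 (2.98-fold), WIPI1 (2.87-fold), ULK1 (2.65-fold), RB1CC1 (2.62-fold) and MAP1LC3B (2.01-fold), and BNIP3, which was at 0.420 of the level of the others. These were 17.5% of the members, and 12.1% of all genes differed as much. In PGCC 0 members differed over 2-fold between the same experiments, as 2.91% of all genes did, and SQSTM1 and OPTN came nearest, at 0.505 and 0.515 of the level of the others. With LCL521 the UT_LCL libraries showed 6 members over 2-fold (9.98% of all genes) and PGCC_LCL 0 (2.67% of all genes). This description divides the libraries by a principal component of the same data and carries no test, and what set experiments 4 and 5 apart is not given in the sources used here.

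Promoters are shown for ULK1, GABARAPL1, MAP1LC3B and BNIP3, 4 of the members just named for levels that differed over 2-fold among UT libraries, so that their letters can be set beside their levels. Each is the stretch of 250 bases before the annotated start in RefSeq's GRCh38.p14 annotation, printed 5′ to 3′ on the gene's strand, a build other than the hg19 of the counts. Capitals mark matches on either strand to CACGTG (an E-box, the core of the element read by TFEB), GTAAACA (forkhead factors), TGAGTCA (AP-1), TGACNNNGC (the core of the antioxidant response element) or CCAAT.
ULK1, chr12:131894372-131894621, plus strand: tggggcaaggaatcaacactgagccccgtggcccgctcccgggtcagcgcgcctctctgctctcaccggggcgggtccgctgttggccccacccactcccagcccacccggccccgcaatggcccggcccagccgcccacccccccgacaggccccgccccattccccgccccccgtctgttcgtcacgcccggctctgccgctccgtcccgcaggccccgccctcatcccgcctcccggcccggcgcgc
GABARAPL1, chr12:10212627-10212876, plus strand: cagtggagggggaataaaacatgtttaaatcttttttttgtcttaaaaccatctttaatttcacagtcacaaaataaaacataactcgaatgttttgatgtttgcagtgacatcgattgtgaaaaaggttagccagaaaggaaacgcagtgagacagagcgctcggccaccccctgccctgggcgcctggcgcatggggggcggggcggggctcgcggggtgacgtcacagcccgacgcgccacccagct
MAP1LC3B, chr16:87392086-87392335, plus strand: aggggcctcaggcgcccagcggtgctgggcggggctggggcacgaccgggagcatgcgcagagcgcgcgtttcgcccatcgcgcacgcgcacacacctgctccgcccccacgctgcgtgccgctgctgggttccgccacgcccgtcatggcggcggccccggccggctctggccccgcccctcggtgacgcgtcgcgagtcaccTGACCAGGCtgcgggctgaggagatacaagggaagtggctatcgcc
BNIP3, chr10:131981924-131982173, minus strand: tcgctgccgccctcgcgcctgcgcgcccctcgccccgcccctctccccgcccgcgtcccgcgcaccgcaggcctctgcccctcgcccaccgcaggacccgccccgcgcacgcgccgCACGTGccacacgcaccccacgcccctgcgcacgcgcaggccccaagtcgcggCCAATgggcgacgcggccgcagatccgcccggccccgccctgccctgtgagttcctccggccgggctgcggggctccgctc
The windows of ULK1 and GABARAPL1 held 0 matches to these 5 motifs, that of MAP1LC3B held TGACCAGGC at -46 from the start, and that of BNIP3 held CACGTG at -134 and CCAAT at -81. Among windows not printed, that of WIPI1 held CCAAT at -248 and -201. NBR1 had 1 window with CCAAT at -105 and -63 and another with 0 matches. RefSeq promoters were matched for 36 of the 42 symbols, 45 promoters in all, in windows that reach from 250 bases before to 50 bases after the start. CACGTG was found in 8.89% of them, in ATG14, ATG3, BNIP3 and ULK3, against 7.26% of 35116 promoters of the same length. TGACNNNGC was found in 6.67% against 13.3%, CCAAT in 31.1% against 34.6%, GTAAACA in 4.44% against 3.42% and TGAGTCA in 2.22% against 4.95%. A match describes letters only.

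Under LCL521 in both populations, PGCC_LCL against UT_LCL, 12 of 40 members passed (7 higher, 5 lower), against 48.9% of all 13818 genes tested (25% higher, 23.9% lower). With the block 16 members passed (56.3% of all genes), without experiments 4 and 5 20 passed (52.5%), or 23 with the block as well (57.5%), in them alone 23 passed (51.4%), and under library totals 12 passed (48.1%). OPTN again rose most, and ran from 4.85 through 6.03 to 8.25 CPM in UT_LCL and from 9.53 through 20.9 to 24.5 CPM in PGCC_LCL, with no overlap and a log2 fold change of 1.62 (adjusted p = 3.44e-05), which was 2.00 without experiments 4 and 5 and 0.72 in them alone. UVRAG ran from 16.0 through 21.0 to 24.8 CPM and from 27.5 through 30.5 to 35.5 CPM, at 0.63 (adjusted p = 3.85e-04). ATG2B ran from 35.2 through 40.9 to 43.9 CPM in UT_LCL and from 22.7 through 25.3 to 27.6 CPM in PGCC_LCL, at -0.60 (adjusted p = 6.27e-05). For each of these members the drug-treated populations were separated as completely as the untreated ones. ATG16L2, WDR45 and ATG16L1 rose by 0.95, 0.72 and 0.56, and PIK3C3, ATG4D, ATG3 and ATG9A had values of -0.50, -0.40, -0.32 and -0.29, all past the threshold. Without experiments 4 and 5, ATG3 (-0.24, adjusted p = 0.0582) and ATG16L2 (0.66, adjusted p = 0.100) lost these calls and the other 10 called members kept theirs, whereas in those experiments alone both passed (-0.46 and 1.43). ATG2A (0.49, adjusted p = 0.00457) and VMP1 (0.28, adjusted p = 0.0368) passed here, and GABARAP (0.20, adjusted p = 0.543) did not. VMP1 lost its call without experiment 2, 3, 5 or 6, with values of 0.21 to 0.28 and adjusted p from 0.0574 to 0.143. ULK1 had 0.61 (adjusted p = 0.0680), 0.72 with the block (adjusted p = 0.00545) and 1.00 without experiments 4 and 5 (adjusted p = 6.82e-04). With the block, ATG7 (-0.17), GABARAPL1 (0.76) and TAX1BP1 (0.32) passed as well (adjusted p = 0.0411, 0.0143 and 0.0358). Ranges did not overlap for 8 members, against 28.1% of all genes, the 6 named for untreated cells with WDR45 and ATG9A.

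LCL521 was given for 5 h, and the comparisons asked whether the transcripts respond to inhibition of ASAH1 within that time. In parental cells 0 members and 0 of 13277 genes passed in the fit without a block (edgeR, with 0 members and 71 genes at an unadjusted p under 0.05, and in DESeq2 0 genes, with 83 at an unadjusted p under 0.05). In PGCC 0 members and 1 of 14151 genes (0.00707%) passed, INSIG1, which had means of 59.9 CPM in PGCC and 95.2 CPM in PGCC_LCL. INSIG1 was also higher with the drug in parental cells, where it did not pass without a block. Its means there were 36.5 CPM in UT and 62.0 CPM in UT_LCL, at a blocked log2 fold change of 0.76. In PGCC, 2 members and 218 of all genes had an unadjusted p under 0.05, and 0 members and 6 genes passed in DESeq2. With the experiment as a block, 1 member passed in parental cells, against 0.866% of all genes, and 4 passed in PGCC, against 1.65%, all 5 of them higher with the drug. Between libraries with and without LCL521 the ranges overlapped for every member, and 0.0301% of all genes in parental cells and 0.0848% in PGCC did not overlap. In parental cells 6 members kept one direction in all 6 experiments (RB1CC1, GABARAPL1, SQSTM1, BNIP3L and EPG5 higher, BECN1 lower), against 8.07% of all genes. In PGCC 6 members did so (ATG14, ATG2A, ATG2B, SQSTM1 and NBR1 higher, ATG12 lower), against 7.99%.

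**Figure D5:**
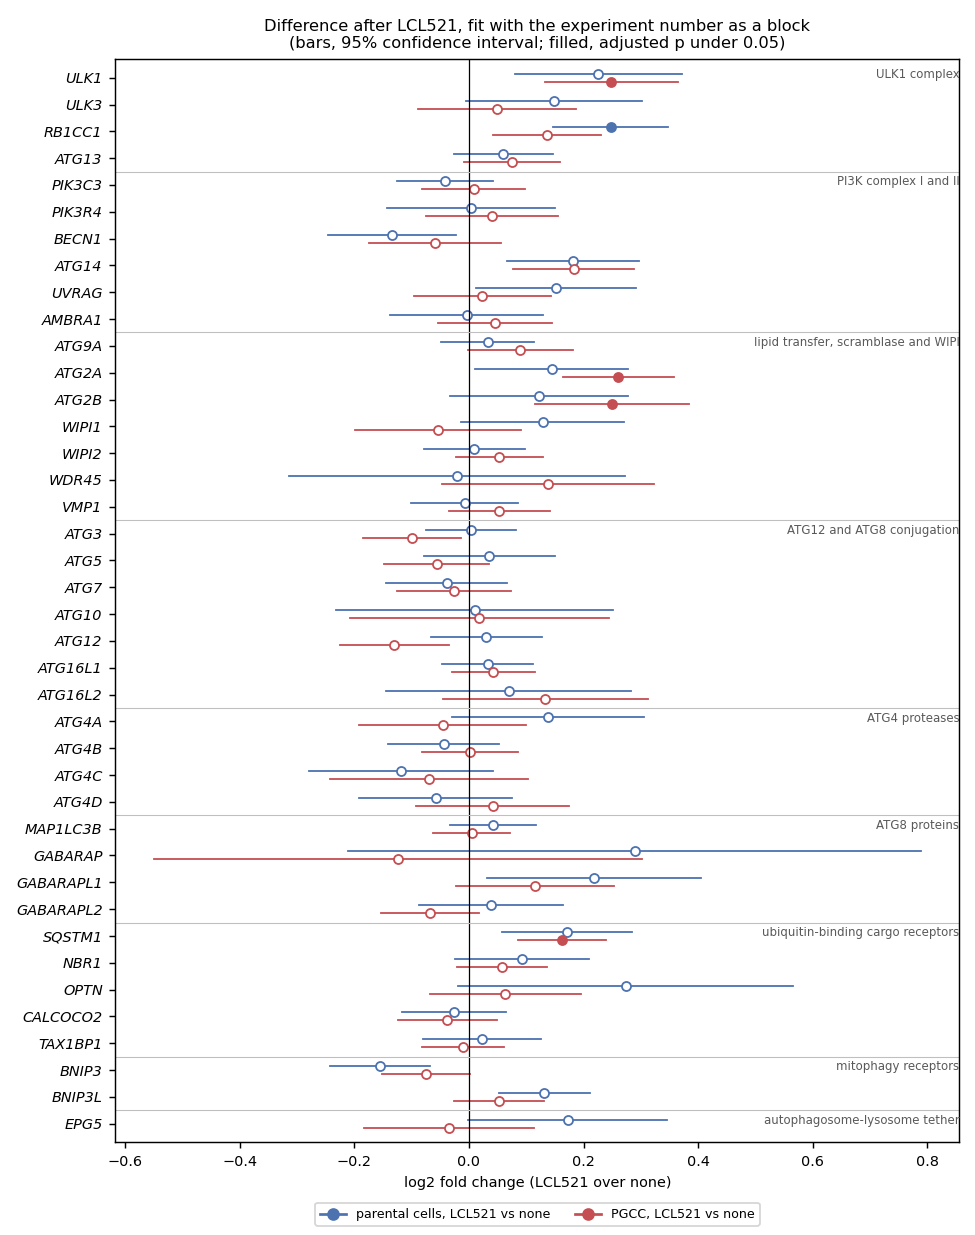
Log2 fold change with LCL521 and its 95% interval from the fit with the experiment as a block, for parental cells and PGCC. Filled points have an adjusted p under 0.05. RB1CC1 is filled in parental cells and ULK1, ATG2A, ATG2B and SQSTM1 in PGCC.

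In parental cells RB1CC1 was the member called. It ran from 23.7 through 33.1 to 78.0 CPM in UT and from 30.6 through 39.0 to 94.2 CPM in UT_LCL, and was higher with the drug in 6 of 6 experiments, by 0.10 to 0.37 log2 units. The spread among experiments was far wider than this shift. The blocked log2 fold change was 0.25 ± 0.05 (SE, n = 6 pairs, adjusted p = 0.0204), and without experiments 4 and 5 it was 0.29 and did not pass (adjusted p = 0.149). In that fit 0 members passed, against 0.0227% of all genes.

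In PGCC the 4 members called were the initiating kinase, both ATG2 lipid bridges and the receptor SQSTM1. ATG2A ran from 30.0 through 34.1 to 38.1 CPM in PGCC and from 34.8 through 42.4 to 45.1 CPM in PGCC_LCL and was higher in 6 of 6 experiments, by 0.19 to 0.39 log2 units. Its blocked log2 fold change was 0.26 ± 0.05 (SE, n = 6 pairs, adjusted p = 0.00238), a rise of 19.8%, and it passed without experiments 4 and 5 as well (0.27, adjusted p = 0.0201). ULK1 ran from 32.9 through 36.9 to 42.6 CPM and from 32.6 through 46.3 to 53.7 CPM, was higher in 5 of 6 experiments, and rose by 18.8% (0.25, adjusted p = 0.0195). ATG2B, which was lower in PGCC than in UT in a comparison that shares the PGCC libraries, ran from 17.2 through 20.4 to 27.0 CPM and from 22.7 through 25.3 to 27.6 CPM, and was higher with the drug in 6 of 6 experiments (0.25, adjusted p = 0.0490, and 0.21 with adjusted p = 0.0720 after a correction for gene length). SQSTM1 ran from 268 through 598 to 674 CPM and from 329 through 630 to 762 CPM. It rose by 11.9% (0.16, adjusted p = 0.0218), in 6 of 6 experiments by 0.04 to 0.33 log2 units. Without experiments 4 and 5 these 3 members had values of 0.21, 0.26 and 0.13 and did not pass (adjusted p = 0.206, 0.142 and 0.191), where 0.91% of all genes did.

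Whether the drug's effect differed between the populations was tested as an interaction over all 24 libraries. With or without the block, 0 members and 0 of 14555 genes passed (edgeR, with 0 members and 60 genes at an unadjusted p under 0.05 without the block, and in DESeq2 0 genes, with 54 at an unadjusted p under 0.05). In parental cells the blocked values of ULK1, ATG2A, ATG2B and SQSTM1 were 0.23, 0.14, 0.12 and 0.17, none past the threshold (adjusted p from 0.167 to 0.530), and RB1CC1 had 0.14 in PGCC (adjusted p = 0.149). In the interaction fit without the block, the effect in PGCC less that in parental cells was 0.07 for ULK1 (95% interval -0.77 to 0.91, and -0.11 without experiments 4 and 5), 0.13 for ATG2A (-0.24 to 0.50), 0.12 for ATG2B (-0.20 to 0.44), 0.00 for SQSTM1 (-0.59 to 0.60) and -0.09 for RB1CC1 (-0.92 to 0.73). That fit leaves the spread among experiments in its error. With each treated library set against its untreated partner of the same population and experiment, the differences were 0.03 for ULK1 (-0.16 to 0.22), 0.12 for ATG2A (-0.03 to 0.28), 0.13 for ATG2B (-0.08 to 0.35), 0.00 for SQSTM1 (-0.15 to 0.14) and -0.11 for RB1CC1 (-0.24 to 0.02). Here too 0 members and 0 genes passed, with 1 member and 561 genes at an unadjusted p under 0.05. Every one of these 5 intervals included 0 in both fits.

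Genes around the core machinery were counted from 8 further lists, written with knowledge of earlier results, with 68 symbols of which 62 could be tested. In PGCC against UT, 9 were higher, 19 were lower and 34 did not pass, where 47.4% of all genes tested were called. With the block 10 were higher and 22 lower, against 56.2% of all genes. Among the partners of the ULK and lipid kinase complexes (1 higher and 1 lower of 6), NRBF2, an ATG14 complex subunit, rose from 86.4 to 129 CPM (log2 fold change 0.60, adjusted p = 0.00105), and BCL2, which binds BECN1, was at -0.61 (adjusted p = 0.00380). Of the genes for membrane supply (1 and 1 of 6), ZFYVE1, the omegasome marker DFCP1, rose by 0.64 (adjusted p = 0.00300), and the membrane-bending SNX18 was at -0.89 (adjusted p = 1.63e-04). The 2 further LC3 variant genes were too low to test. Of the other selective receptors (2 and 4 of 12), the mitochondrial receptor FUNDC1 and the ER receptor RTN3 rose by 0.39 and 0.25, and PHB2 and TEX264, receptors of the inner mitochondrial membrane and the ER, had -0.72 and -0.57.

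Genes for fusion with lysosomes (1 higher and 4 lower of 12) were led by the HOPS tether subunits VPS33A and VPS41, at -0.73 and -0.56, while the SNARE SNAP29 rose by 0.19. In the mTORC1 and AMPK list (1 and 5 of 15), DEPTOR, an inhibitor of mTOR, fell from 13.8 to 3.75 CPM (-1.86, adjusted p = 2.06e-05), PRKAB1, an AMPK subunit, had -0.65, and TSC2, a brake on mTORC1, rose by 0.27. Of the stress-induced genes (2 and 1 of 7), TP53INP2 (DOR), which binds ATG8 proteins, rose from 11.4 to 36.8 CPM (1.72, adjusted p = 9.63e-07) and SESN3 by 0.94, whereas SESN1 had -0.57. All 4 genes of the mitophagy kinase and ligase list passed. PINK1, the kinase that marks damaged mitochondria, rose from 19.1 to 50.6 CPM (1.43, adjusted p = 1.50e-07), whereas PARK2 (Parkin), its ligase partner, had -0.78, the deubiquitinase USP30 had -0.40 and TBK1, which phosphorylates OPTN, had -0.39. For LCL521, 0 of the 62 genes passed in either population without the block. With it, 1 was lower in parental cells (0.866% of all genes called), and 3 were higher and 1 lower in PGCC (1.65%). BCL2L1 (BCL-XL) fell in both populations, at -0.33 in parental cells and -0.17 in PGCC (adjusted p = 0.00713 and 0.0356), and ZFYVE1, the lysosomal adaptor PLEKHM1 and TP53INP2 rose in PGCC by 0.32, 0.33 and 0.23.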

How the data were processed

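RNA of 24 libraries was sequenced by Novogene. The submitters' processing notes name CASAVA, STAR, HTSeq and DESeq2 and the build hg19. The authors deposited raw read counts per gene, with gene lengths and coordinates and no normalization. Whether counting used strand is not given in the sources used here, and 29 members overlap another gene, 10 of them on the same strand, so that antisense and overlapping reads cannot be told apart and ambiguous reads may have been left out.

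Computations used R 4.3.3, edgeR 4.0.16, limma 3.58.1 and DESeq2 1.42.0. Each comparison was fitted on its 12 libraries over all genes with edgeR's quasi-likelihood test after filterByExpr (minimum count 10, total 15) and TMM scaling, with Benjamini-Hochberg adjustment at 0.05, and the interaction on all 24. Log2 CPM were computed with a prior count of 2, and intervals cover 95%. The scripts were tested on simulated data. Members and lists were chosen with earlier results of these data known. Named with full values were the ATG8 family, the cargo receptors, members called between UT and PGCC with a log2 change of at least 0.5 and those called with LCL521. Those marked by experiments 4 and 5 were added after their values were seen.

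No block entered the main tests, since none is named in the study's methods. Libraries are numbered by experiment, the design text says that all conditions were harvested in parallel in 6 independent experiments, and same-numbered libraries deviated together in every pair (lowest correlation across genes 0.237 for PGCC and UT, 0.171 under LCL521, 0.458 and 0.385 for the drug). Of 6 PGCC libraries, 5 correlated best with the UT library of their own number, and under LCL521 3 of 6 did. For the drug all 6 did in each population. Alternatives were DESeq2, RLE factors, library totals, 2 other filters, the block with and without a lowess correction for gene length (span 0.3), all 24 libraries in one fit, each experiment left out, and experiments 4 and 5 left out. Experiments 4 and 5 had been picked out from these same data. The block in DESeq2, the block without experiments 4 and 5, experiments 4 and 5 alone and, for the interaction, a block for each experiment within each population were added after the data were seen. No column of samples was left out. Some marker genes checked are not reported here.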

Additional observations from a re-analysis of the deposited data

Results flagged for a closer look

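In 6 of 160 sets of 6 libraries (each of 40 members in each of 4 conditions), 1 library lay far from the others by Dixon's test, and chance alone gives about 5%. ATG4C, a protease for ATG8 proteins, was at 18.6 CPM in UT of experiment 2 (others 11.2 to 12.2) and at 19.8 CPM in UT_LCL of the same experiment (others 9.65 to 11.5). GABARAP was at 1.17 CPM in UT of experiment 2 (others 0.763 to 0.885), a difference of a few counts. ATG14 was at 27.0 CPM in PGCC of experiment 1 (others 34.0 to 36.0). VMP1 was at 176 CPM in UT of experiment 4 (others 155 to 159.6). BNIP3L was at 105 CPM in PGCC_LCL of experiment 1 (others 96.2 to 100.0).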

How the results depend on the processing

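Of the members' values between UT and PGCC under the alternatives, 634 of 720 kept their direction and side of the threshold, 25 lost the call, 56 gained one, 5 changed to a called opposite direction and 58 changed sign without any call. Under LCL521 these numbers were 653 of 719, 9, 51, 6 and 56. For the drug only 5 members were followed through the alternatives, and 87 of 90 of their values in parental cells and 79 of 90 in PGCC were the same. The experiments counted decided most. Members called in PGCC against UT numbered 11, 20 without experiments 4 and 5, 25 with the replicate block and without them, and 19 in them alone, and 8 to 11 with 1 experiment left out. Under LCL521 they numbered 12, 20, 23, 23 and 11 to 13. With 1 experiment left out, all genes called numbered 5529 to 6333 and, under LCL521, 5734 to 6339. Opposite directions were called for RB1CC1 without experiments 4 and 5 (0.46, and 0.46 with the block, against -0.11), NBR1 (0.55 and 0.56 against -0.02) and, in experiments 4 and 5 alone, MAP1LC3B (-0.50 against 0.23). Under LCL521 the same held for RB1CC1 (0.30 and 0.30 against -0.19), NBR1 (0.52 and 0.52 against -0.01), MAP1LC3B (-0.50 against 0.23) and WIPI1 (-0.49 against 0.01). The cause was not tested.

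For LCL521 in parental cells, members called numbered 0, and 1 with the replicate block, with the block and length correction and with the block in DESeq2. Genes called numbered 0, and 115, 234 and 168 in these settings and 3 with the block without experiments 4 and 5. In PGCC, members called numbered 0, and 4, 3 and 3 in the same settings and 1 with the block without experiments 4 and 5, and genes called numbered 1, and 234, 260, 193 and 129, 6 in DESeq2, 0 with all libraries in one fit, without experiments 4 and 5 or in them alone, and 0 to 1 with 1 experiment left out. The interaction gave 0 in every setting, the replicate block within each population included. The block changed no calls between UT and PGCC other than those named. Among the calls made without the block, GABARAP, WDR45, ATG3 and, under LCL521, VMP1 are those that single experiments decide. Calls made only with the block were not refitted with single experiments left out. GABARAP had few counts, and ULK2 and MAP1LC3A were too low to test.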
